A study of Mus musculus with 9 samples.

Results

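The 8 genes described here encode growth factors, a receptor and transcription factors of the mouse oocyte. They were taken by symbol from a deposited table of 19359 genes: Gdf9 and Bmp15, which encode secreted growth factors of the TGF-beta family, Kit, which encodes a receptor tyrosine kinase, and the transcription factor genes Nobox, Lhx8, Figla, Sohlh1 and Sohlh2. All 8 were in the table, and 7 reached 1 CPM (counts per gene relative to the library total) in at least 3 libraries and were tested, Figla being the exception. The study asked how the first replication of the embryo bears on the outcome of pronuclear transfer, the move of a zygote's pronuclei into another cytoplast.

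Poly(A) RNA was sequenced from 9 libraries, each a pool of 3 mouse embryos collected 34 h post fertilization, and each of 3 groups had 3 libraries, lettered A to C. SPN embryos had a sham pronuclear transfer and served as the control, EPN embryos had an early pronuclear transfer, and LPN embryos had a later one. The B6D2F1 females were 8 to 12 weeks old and received PMSG, followed by hCG where ovulated eggs were collected, and no allele or transgene is labelled. The labels also describe cytoplasts prepared by selective enucleation of germinal vesicle oocytes, without saying whether these contributed to the sequenced embryos, and they do not say that pools came from separate days or matings, so p-values measure the spread between these libraries, which may be technical.

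In the ovary, GDF9 and BMP15 are secreted by the oocyte and act on the surrounding granulosa and cumulus cells through BMPR2 and type I receptors, with Smad proteins as effectors. KIT on the oocyte surface binds Kit ligand from granulosa cells and signals through PI3K, Akt and Foxo3 and through Ras and Mapk. FIGLA, SOHLH1 and SOHLH2 are basic helix-loop-helix proteins, a class that binds E-boxes, while NOBOX is a homeodomain protein and LHX8 a LIM-homeodomain protein, and loss of any of these factors disturbs the growth of early oocytes. Oocyte mRNAs are inherited by the zygote and are degraded as the embryo's own genes become active at the 2-cell stage.

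Promoter sequence from RefSeq's GRCm38.p6 annotation was held for 7 of the 8 genes, Gdf9 being the one without. Of these, 4 are shown because they belong to the growth factor, receptor and homeobox genes whose mRNA levels are compared below. They were chosen after the values were seen. Each line gives the 250 bases before the annotated start site, 5′ to 3′ on the gene's strand, with capitals marking an E-box (CANNTG), a NOBOX element (TAATTG or TAATTA) or an LHX8 element (TGATTG), each searched on both strands. The Bmp15 stretch lies at chrX:6320725-6320974 on the minus strand, the Kit stretch at chr5:75574737-75574986 on the plus strand (before the first of its 2 annotated starts), the Nobox stretch at chr6:43309555-43309804 on the minus strand and the Lhx8 stretch at chr3:154330561-154330810 on the minus strand.
Bmp15: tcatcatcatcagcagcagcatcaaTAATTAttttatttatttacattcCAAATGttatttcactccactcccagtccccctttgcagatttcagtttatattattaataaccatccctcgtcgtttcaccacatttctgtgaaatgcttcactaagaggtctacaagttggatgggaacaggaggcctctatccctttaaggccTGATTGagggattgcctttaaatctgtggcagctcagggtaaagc
Kit: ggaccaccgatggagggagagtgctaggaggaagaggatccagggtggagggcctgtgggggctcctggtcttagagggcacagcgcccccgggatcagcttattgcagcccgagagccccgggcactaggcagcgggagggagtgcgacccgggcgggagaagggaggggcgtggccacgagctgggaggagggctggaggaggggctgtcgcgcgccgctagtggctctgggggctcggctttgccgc
Nobox: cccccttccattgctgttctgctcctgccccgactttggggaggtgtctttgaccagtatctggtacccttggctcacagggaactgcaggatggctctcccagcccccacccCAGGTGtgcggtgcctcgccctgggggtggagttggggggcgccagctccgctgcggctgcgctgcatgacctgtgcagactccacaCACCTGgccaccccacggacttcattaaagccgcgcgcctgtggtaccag
Lhx8: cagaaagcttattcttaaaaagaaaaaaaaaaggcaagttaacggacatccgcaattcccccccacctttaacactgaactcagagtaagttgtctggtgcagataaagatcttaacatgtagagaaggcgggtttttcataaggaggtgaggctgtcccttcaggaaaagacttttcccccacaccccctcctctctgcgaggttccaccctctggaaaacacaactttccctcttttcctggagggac

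The Bmp15 promoter was the only one of the 7 that held all 3 motifs: TAATTA began 225 bases before the start site, the E-box CAAATG 201 bases before it and TGATTG 45 bases before it, and these hits did not overlap. In Nobox, the E-boxes CAGGTG and CACCTG began 137 and 50 bases before the start. Within the 250 bases before the start and the 50 bases after it, Kit held 1 E-box, CACTTG, 8 bases after the start, Figla held 4, Sohlh1 held 5 (of which 3 were CACGTG), Sohlh2 held 1, and Lhx8 held none of the 3 motifs. Among 32851 RefSeq promoters of the same 300 bases, 72.3% held an E-box, 12.4% a NOBOX element and 14.0% an LHX8 element, so an E-box in such a window is common. The share that held all 3 was not counted. A match of letters is a description of the sequence only.

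Library totals ran from 7611781 reads in LPN B to 15559218 in LPN A, and 1 read was worth 0.0643 to 0.131 CPM. In LPN against SPN 8.8% of the 14876 tested genes were called (limma, Benjamini-Hochberg adjusted p under 0.05), 824 of them lower and 485 higher, whereas 0.108% were called for EPN against SPN and 1.53% for LPN against EPN. With libraries rescaled by median-of-ratios, the share of lower calls went from 62.9% to 44.9% for LPN against SPN and from 54.8% to 29.4% for LPN against EPN, and the median difference of all genes in LPN against SPN went from -0.17 to -0.03 on the log2 scale. The library SPN A stood apart within its group: its summed CPM of 20 markers of the 2-cell embryo was 4214, above the 2842 of SPN B and the 2159 of SPN C, and the transfer libraries ran from 4659 to 8290, and 2733 genes were called in LPN against SPN without it. The calls in LPN against SPN dropped to 96 without SPN C and 204 without LPN B.

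The mRNAs of both oocyte growth factors were lower after later pronuclear transfer than after sham transfer, and they were the 2 of 7 tested genes that passed the test in LPN against SPN, where 5.54% of all tested genes were called lower. Kit and Lhx8 had lower group means too without passing it, Nobox overlapped widely, and the 3 helix-loop-helix genes were low and uneven, each with 0 reads in at least 2 libraries and at most 105 in any. In EPN, the means of Gdf9, Bmp15, Kit, Nobox and Lhx8 lay between those of SPN and LPN. That order of the 3 means, SPN over EPN over LPN, was found for 5 of 7 tested members (71.4%) and for 4340 of 14876 tested genes (29.2%), a description with no test.

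**Figure D1:**
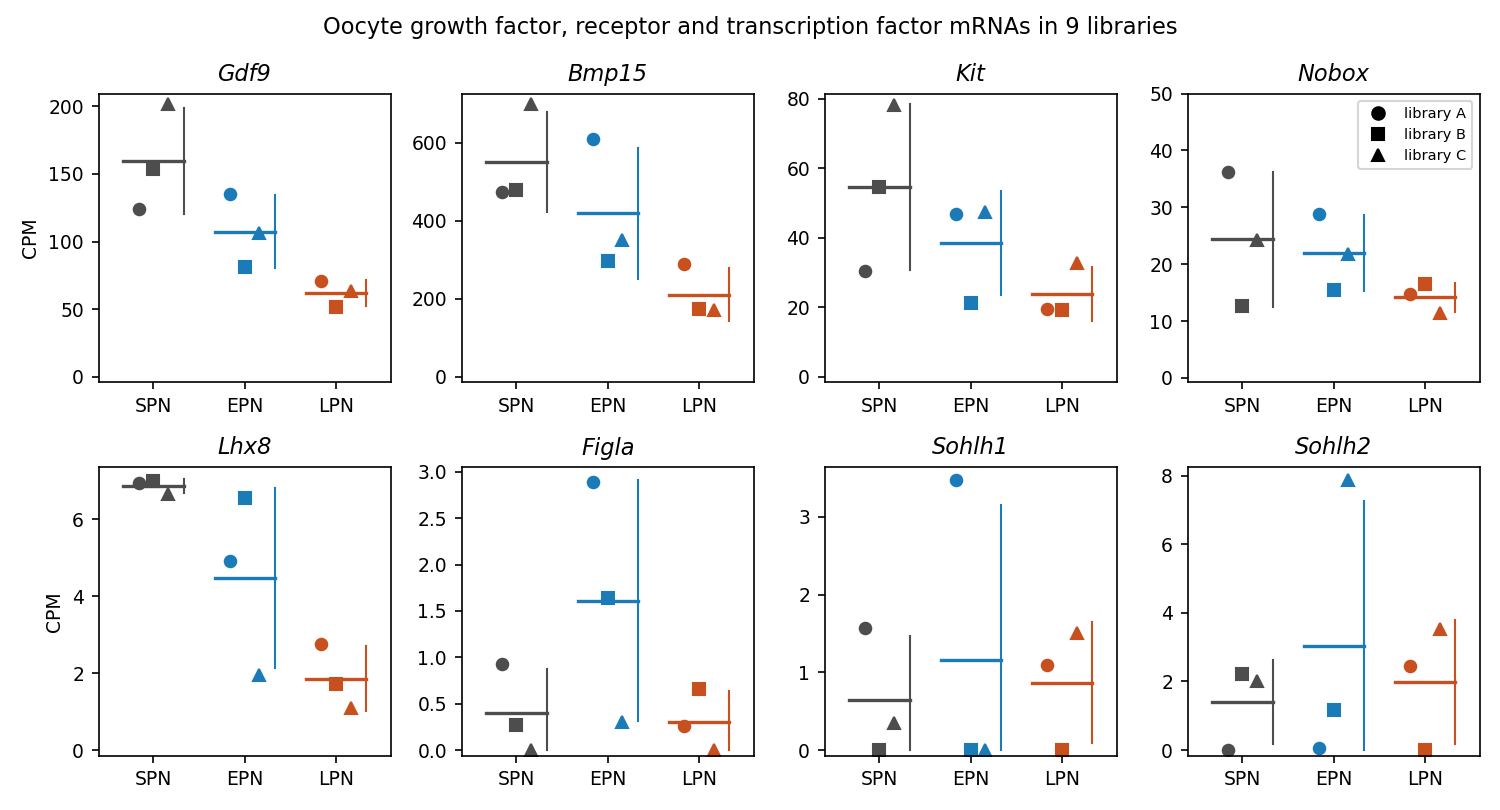
Level of each of the 8 genes in CPM (vertical axes, each panel on its own scale) in the 9 libraries by group, with the symbol giving the library letter, horizontal lines the group means and vertical lines 1 SD to either side, cut at 0. All 3 LPN libraries lie below all 3 SPN libraries for Gdf9, Bmp15 and Lhx8, while Figla, Sohlh1 and Sohlh2 show zeros in several groups.

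Gdf9, which supports follicle growth beyond the primary stage and expansion of the cumulus, was measured at 124, 153 and 202 CPM in SPN A, B and C, at 135, 81.2 and 106 CPM in EPN, and at 70.7, 51.6 and 63.4 CPM in LPN. The LPN libraries all lay below every SPN and every EPN library, while EPN A lay within the SPN range. Mean levels were 160 ± 39.4 CPM for SPN, 107 ± 26.9 for EPN and 61.9 ± 9.62 for LPN (SD, n = 3 each). In LPN against SPN, Gdf9 fell by 1.34 on the log2(CPM + 1) scale (SE 0.31, 95% interval -1.97 to -0.70, limma adjusted p = 0.0096), a 2.53-fold difference that was larger than the spread between libraries.

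Bmp15, the X-linked paralog that acts with GDF9 and tunes the ovulation rate, had the highest level of the 8 mRNAs in every library, in CPM and per kb of exon. Its levels were 474, 478 and 699 CPM in SPN A, B and C, 610, 296 and 351 CPM in EPN, and 289, 172 and 170 CPM in LPN. Again the LPN libraries were below all others, by a narrow margin between LPN A and EPN B, and EPN spanned the widest range. Group means were 550 ± 129 CPM for SPN, 419 ± 167 for EPN and 211 ± 68.1 for LPN (SD, n = 3 each). Bmp15 fell by 1.40 on the log2(CPM + 1) scale in LPN against SPN (SE 0.30, 95% interval -2.01 to -0.79, limma adjusted p = 0.00564), or 2.64-fold. In bulk pools, a lower level can come from fewer molecules of an mRNA or from more of other RNA, and fewer cells carrying it and less RNA per cell cannot be told apart.

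The calls for both growth factors depended on single libraries. Without SPN C, which had the highest value of both genes, Gdf9 was lower by a log2 difference of -1.16 (limma adjusted p = 0.0938) and Bmp15 by -1.22 (adjusted p = 0.0682), and without LPN B, the shallowest library and the one lowest in Gdf9, by -1.21 (adjusted p = 0.0645) and -1.28 (adjusted p = 0.0504). Without SPN A, the differences were -1.50 for Gdf9 (adjusted p = 0.00213) and -1.50 for Bmp15 (adjusted p = 0.00263). With the libraries rescaled by median-of-ratios, the log2 difference of LPN from SPN was -1.16 for Gdf9 (limma adjusted p = 0.0222) and -1.22 for Bmp15 (adjusted p = 0.0237).

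**Figure D2:**
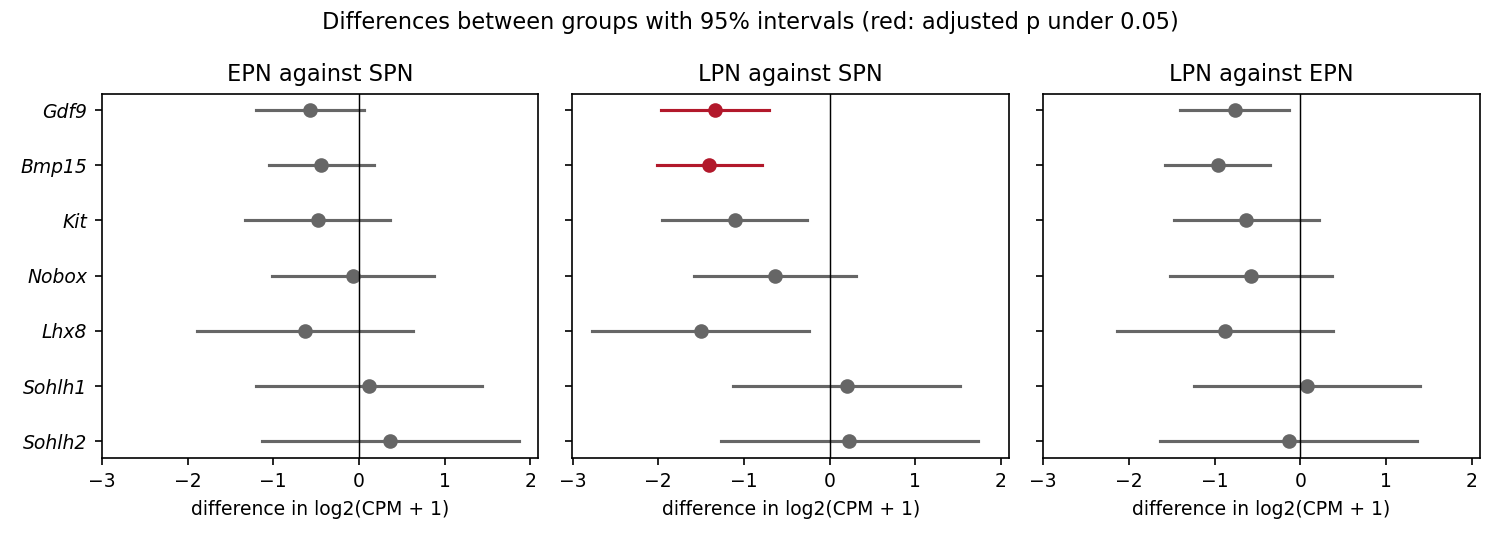
Differences in log2(CPM + 1) between groups (horizontal axis) for the 7 tested genes, with points at the limma estimates and lines at their 95% intervals, red where the adjusted p is under 0.05. Only Gdf9 and Bmp15 in LPN against SPN are red, and the intervals of Sohlh1 and Sohlh2 cross 0 in all 3 panels.

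The ratio of the growth factor pair was not separated between the groups. In CPM per kb of exon, Bmp15 was 2.24, 1.83 and 2.03 times Gdf9 in SPN A, B and C, 2.65, 2.14 and 1.94 times in EPN, and 2.40, 1.95 and 1.57 times in LPN. The ranges overlapped, with means of 2.03 ± 0.206 for SPN, 2.24 ± 0.365 for EPN and 1.97 ± 0.412 for LPN (SD, n = 3), and the two-sided exact permutation test gave p = 0.9 between LPN and SPN and p = 0.5 otherwise, where 3 against 3 libraries cannot go below 0.1. Over the 9 libraries the log2(CPM + 1) values of Gdf9 and Bmp15 had a Pearson r of 0.96, and 0.86 after each group's mean was removed. Those points share libraries and depth, so both values are descriptions. Together, the pair made up 82.3% to 89.8% of the summed CPM of the 8 genes, a sum of 798 ± 186 CPM for SPN, 597 ± 211 for EPN and 315 ± 74.7 for LPN (SD, n = 3).

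**Figure D3:**
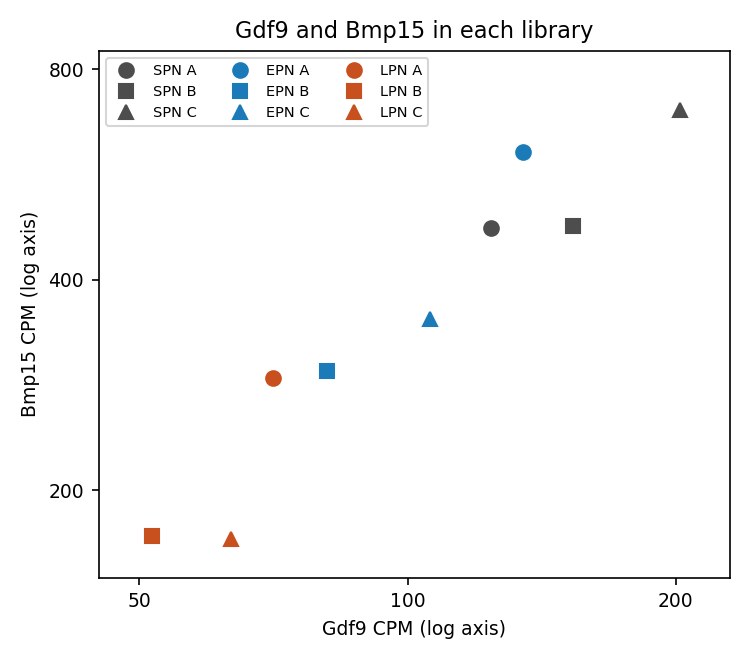
CPM of Gdf9 (horizontal, log axis) against CPM of Bmp15 (vertical, log axis) in each of the 9 libraries, coloured by group with the symbol giving the library letter. The LPN libraries occupy the lower left, SPN C the upper right, and EPN A lies among the SPN libraries.

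Kit, the receptor through which granulosa cells act on the oocyte, was measured at 30.4, 54.8 and 78.3 CPM in SPN A, B and C, 46.8, 21.1 and 47.4 CPM in EPN, and 19.5, 19.0 and 32.7 CPM in LPN. The groups overlapped, since SPN A was below LPN C. EPN A and EPN C lay between SPN A and SPN B, and EPN B lay below SPN A. Its means were 54.5 ± 23.9 CPM for SPN, 38.4 ± 15.0 for EPN and 23.8 ± 7.73 for LPN (SD, n = 3), and the log2 difference of LPN from SPN was -1.11 (SE 0.42, 95% interval -1.96 to -0.26, limma adjusted p = 0.084). Without SPN A, it was -1.47 (adjusted p = 0.0182), and without SPN C -0.80 (adjusted p = 0.363). After median-of-ratios scaling all LPN libraries lay below all SPN libraries, at a difference of -0.93 (adjusted p = 0.115).

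Nobox, a homeobox gene needed for the step from primordial to primary follicle, showed 36.2, 12.6 and 24.2 CPM in SPN A, B and C, 28.8, 15.5 and 21.7 CPM in EPN, and 14.7, 16.4 and 11.4 CPM in LPN. SPN B lay inside the LPN range, so the groups overlapped. The log2 difference of LPN from SPN was -0.64 (SE 0.46, 95% interval -1.58 to 0.31, limma adjusted p = 0.388), and that of EPN from SPN was -0.07 (95% interval -1.01 to 0.88, adjusted p = 0.976).

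Lhx8, which encodes the LIM-homeodomain factor of early oocytes, was at 6.95, 7.00 and 6.65 CPM in SPN A, B and C (97, 79 and 76 reads). After median-of-ratios scaling these libraries were at 7.36, 6.25 and 5.44, so their closeness belonged to the deposited scale. As deposited, Lhx8 was at 4.91, 6.56 and 1.95 CPM in EPN (68, 84 and 26 reads) and at 2.76, 1.71 and 1.09 CPM in LPN (43, 13 and 13 reads). Every SPN library was above every LPN library. The gap to EPN was narrow, since EPN B at 6.56 CPM lay just under SPN C at 6.65 CPM and was above SPN B and SPN C after median-of-ratios scaling. EPN C lay among the LPN values. In LPN against SPN, the log2 difference was -1.50 with an SE of 0.62, and it did not pass (95% interval -2.77 to -0.24, limma adjusted p = 0.115), and it passed under none of the 19 alternatives that gave it a value, which ran from -1.93 with a pseudocount of 0.1 to -0.80 with a pseudocount of 5. Between EPN and SPN it was -0.63 (95% interval -1.89 to 0.64, adjusted p = 0.733).

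Figla, the factor that activates zona pellucida genes in oocytes, had 13, 3 and 0 reads in SPN A, B and C, 40, 21 and 4 in EPN, and 4, 5 and 0 in LPN. Its highest level was 2.89 CPM in EPN A, SPN C and LPN C were at 0, and with 2 libraries above 1 CPM it was not tested. Sohlh1 had 22, 0 and 4 reads in SPN, 48, 0 and 0 in EPN, and 17, 0 and 18 in LPN, and Sohlh2, its usual partner, had 0, 25 and 23 reads in SPN, 1, 15 and 105 in EPN, and 38, 0 and 42 in LPN. Each group of each of those 2 genes held a library with at most 1 read beside another with 15 or more. With 0 reads seen, as many as 3 cannot be told from none, a limit of 0.193 to 0.394 CPM depending on the library that covers counting error only. The log2 difference of LPN from SPN was 0.20 for Sohlh1 (95% interval -1.12 to 1.52, limma adjusted p = 0.879) and 0.23 for Sohlh2 (95% interval -1.27 to 1.73, adjusted p = 0.877), intervals wide enough to hold a rise or a drop of more than 1 log2 unit.

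In EPN against SPN, 0 of the 7 tested members were called by limma, edgeR or DESeq2, and 0 had an unadjusted limma p under 0.05, against 11% of all tested genes. The nearest was Gdf9 at a log2 difference of -0.57 (95% interval -1.21 to 0.06, limma adjusted p = 0.506), followed by Bmp15 at -0.44 (95% interval -1.05 to 0.17, adjusted p = 0.622) and Kit at -0.48 (95% interval -1.33 to 0.37, adjusted p = 0.70). These intervals hold 0 and also differences beyond -1, so neither equality nor a drop of that size was shown. As deposited, 1 member, Lhx8, had all EPN libraries below all SPN libraries, as did 7.56% of all tested genes. After median-of-ratios scaling Lhx8 overlapped and Gdf9 did not.

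In LPN against EPN, 0 of 7 were called by limma, edgeR or DESeq2, and 2 of 7 had an unadjusted limma p under 0.05 (19.3% of all tested genes). Bmp15 differed by -0.96 on the log2 scale (95% interval -1.58 to -0.35, limma adjusted p = 0.0802) and Gdf9 by -0.77 (95% interval -1.40 to -0.13, adjusted p = 0.175). Both had LPN libraries wholly below the EPN libraries, as 15.3% of tested genes did, although for Bmp15 the groups overlapped after median-of-ratios scaling. Without SPN A in the shared estimate of spread, Bmp15 passed at a limma adjusted p of 0.0462. With a term for the library letters in the model, it passed at a limma adjusted p of 0.0481. In LPN against SPN, where lower groups without overlap were found for 16.2% of tested genes, they were found for 3 of 7 members, and 4 of 7 had an unadjusted p under 0.05 against 26.9% of tested genes. For the members the median log2 difference was -0.44 between EPN and SPN, -1.11 between LPN and SPN and -0.63 between LPN and EPN, beside medians of -0.07, -0.17 and -0.14 over all tested genes. The comparisons share libraries and are not independent of each other.

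Levels of different genes were compared per kb of merged exons (GENCODE vM21 lengths), as CPM per kb. In SPN, Bmp15 stood at 180 ± 42.0 and Gdf9 at 89.2 ± 22.0, ranges that did not overlap. Nobox at 12.9 ± 6.25 and Kit at 10.4 ± 4.56 followed and did not differ beyond their spread, and Lhx8 came next at 3.24 ± 0.0892 (SD, n = 3). Sohlh2 at 0.596, Figla at 0.526 and Sohlh1 at 0.498 CPM per kb were the lowest, with overlapping ranges that reached 0. In LPN, the first 5 kept that order, at 68.8 ± 22.3 for Bmp15, 34.5 ± 5.37 for Gdf9, 7.49 ± 1.35 for Nobox, 4.52 ± 1.47 for Kit and 0.875 ± 0.40 for Lhx8, which there overlapped the helix-loop-helix genes. EPN gave 137 ± 54.7 for Bmp15, 59.9 ± 15.0 for Gdf9, 11.6 ± 3.51 for Nobox, 7.32 ± 2.86 for Kit and 2.11 ± 1.10 for Lhx8 (SD, n = 3). There Figla at 2.12 and Sohlh2 at 1.28 CPM per kb lay within the Lhx8 range, and Sohlh1 stood at 0.897.

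The 5 lists of related genes below are given for the pathways in which the 8 genes act. Their counts in LPN against SPN stand beside 5.54% of all tested genes called lower and an all-gene median of -0.17. The receptors, processing enzymes and Smad effectors of the TGF-beta family had 21 tested genes, of which 3 were lower and 0 higher in LPN against SPN, with a median log2 difference of -1.15. Bmpr2, the type II receptor shared by GDF9 and BMP15, was at 86.2, 74.0 and 100 CPM in SPN, 106, 64.0 and 92.5 CPM in EPN, and 46.0, 32.1 and 44.4 CPM in LPN. The SPN and EPN libraries intermingled above all LPN libraries, and Bmpr2 fell by 1.08 on the log2 scale in LPN against SPN (limma adjusted p = 0.0378). The other calls were Smad7, an inhibitory Smad (-1.64, adjusted p = 0.0423), and Pcsk5, a proprotein convertase (-2.05, adjusted p = 0.0391). Bmpr2 passed under 10 of 20 alternatives, Smad7 under 9 of 20 and Pcsk5 under 7 of the 18 that gave it a value. Among 10 other tested ligands of the family, 1 was lower in LPN against SPN, Tgfb2 (539 ± 122 CPM in SPN, 348 ± 92.9 in EPN, 212 ± 34.0 in LPN, SD, n = 3; log2 difference -1.33, limma adjusted p = 0.00518), which passed under 19 of 20 alternatives.

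The Kit ligand, PI3K-Akt-Foxo and Ras-Mapk genes had 37 tested members, with 6 lower and 0 higher in LPN against SPN (5.54% lower over all genes) and a median of -0.75. Mapk3, encoding the kinase ERK1, had a log2 difference of -1.71 (limma adjusted p = 0.00539), and Foxo1 of -1.61 (adjusted p = 0.00821). Foxo3, the forkhead factor that KIT signalling restrains in primordial oocytes, was at 46.9, 140 and 183 CPM in SPN, 80.8, 56.1 and 56.2 CPM in EPN, and 38, 29.2 and 38.6 CPM in LPN (-1.58, adjusted p = 0.0124). SPN A was the lowest SPN library for Foxo3, as it was for Kit. Kitl, the ligand of KIT, was measured at 11.8 CPM in SPN, 8.14 in EPN and 5.23 in LPN and did not pass (adjusted p = 0.346).

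Of 20 partners of the transcription factors and other oocyte regulators, 3 were lower and 0 higher in LPN against SPN (5.54% lower over all genes), with a median of -0.69: Foxo3, which stands in both lists, the germ-cell RNA-binding protein gene Ybx2 (-1.96, limma adjusted p = 0.0094) and Dazl, a translation regulator of germ cells (-1.35, adjusted p = 0.0113). Genes that depend on the transcription factors in mouse ovaries comprised 18 tested genes, with 6 lower and 1 higher and a median of -0.71. Oosp1, an oocyte-secreted protein gene (-1.09, adjusted p = 0.0129), and Oog1 (-1.14, adjusted p = 0.0138) were among the lower ones. Zp3, a zona pellucida gene and a textbook target of FIGLA, went the other way: 85.5, 69.4 and 105 CPM in SPN, 109, 120 and 93.3 CPM in EPN, and 147, 212 and 230 CPM in LPN, a log2 difference of 1.16 (adjusted p = 0.0166). Its LPN libraries were above all SPN and EPN libraries. The zona pellucida genes Zp1 and Zp2 of the same list were not called in LPN against SPN in either direction. Of the 18 genes, 16 had a negative difference there and 2 a positive one.

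For EPN against SPN, limma called 0 genes in each of the 5 lists, with 2 of 21, 1 of 10, 5 of 37, 2 of 20 and 3 of 18 at an unadjusted p under 0.05 in the order given, beside 11% of all tested genes. For LPN against EPN it called 0 of the TGF-beta receptor and ligand genes (7 of 21 and 3 of 10 unadjusted, beside 19.3% of all tested genes), with Bmpr2 at -1.07 (adjusted p = 0.0787). In the Kit pathway, partner and dependent lists it called 1 of 37, 1 of 20 and 2 of 18 (11, 3 and 8 unadjusted), beside 1.53% of all tested genes called. The genes called lower there were Pik3r1, the regulatory subunit of PI3K (-1.47, adjusted p = 0.0243), Dazl (-1.32, adjusted p = 0.0389), Pou5f1 (-2.15, adjusted p = 0.0149) and the oocyte linker histone gene H1f8 (-1.59, adjusted p = 0.0237). They passed under 13, 9, 15 and 14 of 20 alternatives. H1f8 was at 1.05 in EPN against SPN (limma adjusted p = 0.237) and was not called in LPN against SPN.

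**Figure D4:**
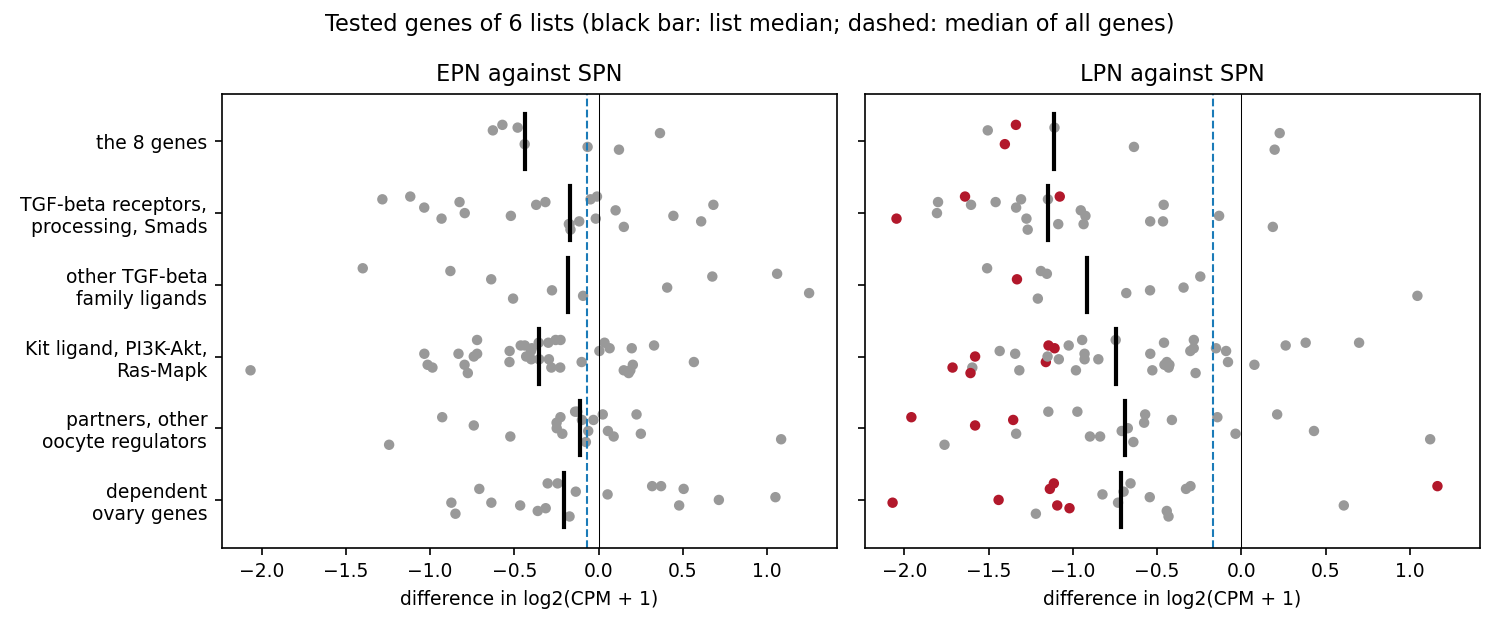
Differences in log2(CPM + 1) (horizontal axes) of the tested genes of 6 lists in EPN against SPN and LPN against SPN, with red points where the limma adjusted p is under 0.05, black bars at list medians and dashed lines at the median of all tested genes. In the LPN panel, the list medians lie between -1.15 and -0.69, to the left of the all-gene median of -0.17, and Zp3 is the red point on the right.

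These list calls in LPN against SPN also rested on single libraries and on the processing. Without SPN C, Tgfb2 was the called gene left among the 5 lists, and without LPN B, Tgfb2 and Mapk3 were. Of the 21 TGF-beta receptor and Smad genes 0 were then called by limma in either case (6 and 8 at an unadjusted p under 0.05). With edgeR on the recovered reads and TMM scaling, 0 of those 21 were called, 3 of the Kit pathway genes, 2 of the partner genes, and 1 lower with 1 higher of the dependent genes. After median-of-ratios scaling, limma called 1 of those 21 (Pcsk5) and 4 of the Kit pathway genes. It then called 3 of the partner genes, and 2 lower with 1 higher of the dependent genes.

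The genes whose pattern over the 9 libraries was most like that of a member were sought by Pearson r of log2(CPM + 1) among 9818 genes averaging 5 CPM or more. Those with a predicted or clone name (such as numbered Gm and Rik symbols) were passed over in the ranking. For Gdf9 they were Cdc42se2, Pard6g and Fmn2, an actin nucleator of the oocyte, each with an r of 0.98. For Bmp15 they were Tubb3, Snapin and Acbd6 (0.97, 0.97 and 0.97). For Kit they were Chp1, Gnpat and Map3k4 (0.98 each), and for Nobox Pgm5, Mest and Zc3h14 (0.94, 0.93 and 0.93). All of these r values run over libraries that also differ by group and depth, and they are descriptions with no test.

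Markers of other cells moved as follows. Of 18 cumulus and granulosa markers 12 were in the table and 7 were tested, with 0 called by limma in any comparison (at an unadjusted p under 0.05, 1 between EPN and SPN and 0 in the other comparisons). Foxl2, a granulosa transcription factor, was at 0 in all 9 libraries, and Fshr, Has2, Cyp11a1, Hsd3b1, Vcan and Runx1 had a median of 0 CPM. Tnfaip6 (median 10.8, highest 23.7 CPM), Kitl (median 6.73 CPM) and Star (median 3.10 CPM) had reads in all 9. Tnfaip6 was at a log2 difference of 1.75 in EPN against SPN (limma adjusted p = 0.27, and 0.0379 without SPN A). The summed CPM of the list ranged from 19.1 to 45.1 in SPN, 17.9 to 51.1 in EPN and 15.6 to 31.7 in LPN (two-sided exact permutation p = 0.3 between SPN and LPN). Sperm markers, 6 of 10 in the table and 2 tested, had 0 called by limma in any comparison (0 unadjusted) and summed to 4.72 to 19.1 CPM per library. The haemoglobin gene Hba-a1, a blood marker, was at 60.8 ± 34.7 CPM for SPN, 58.8 ± 23.1 for EPN and 19.3 ± 9.0 for LPN (SD, n = 3), lower in LPN against SPN (-1.58, limma adjusted p = 0.0247), while 5 of 7 listed blood markers were not in the table. Hba-a1 passed there under 13 of 20 alternatives. In LPN against EPN, Hba-a1 differed by -1.59 (limma adjusted p = 0.0522) and passed under 8 of 20 alternatives. The other tested blood marker, Hba-a2, reached at most 2.73 CPM and was not called by limma in any comparison. Its log2 difference was 0.96 in EPN against SPN (adjusted p = 0.557) and -1.12 in LPN against EPN (adjusted p = 0.284). Among the 2-cell embryo markers, 5 of 18 tested were called higher in LPN against SPN, beside 485 of all 14876 tested genes. There 10 of the 18 had an unadjusted limma p under 0.05, beside 26.9% of all tested genes. For EPN relative to SPN, limma called 0 of the 18, but 12 had an unadjusted p under 0.05, beside 11% of all tested genes. The median log2 difference from SPN was 0.96 in EPN and 0.85 in LPN. Summed CPM of the 20 markers ran from 2159 to 4214 in SPN, 4659 to 6589 in EPN and 5176 to 8290 in LPN. The sum counts both Dux and Duxf3, which had the same median (0.0723 CPM) and the same highest value (3.46 CPM). The two-sided exact permutation test from SPN gave p = 0.1 for both transfer groups, the smallest possible. The part of these differences in the levels of Gdf9, Bmp15, Kit and Lhx8 was not tested.

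**Figure D5:**
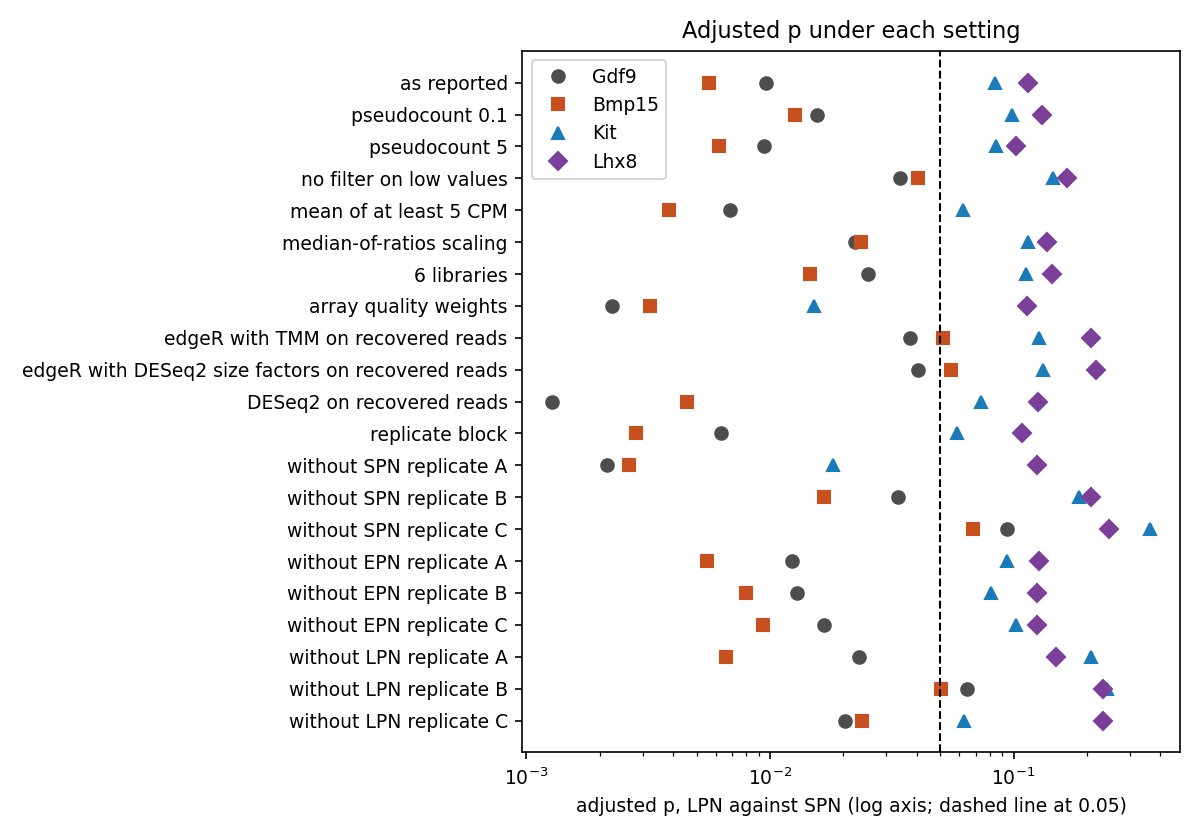
Limma, edgeR or DESeq2 adjusted p of Gdf9, Bmp15, Kit and Lhx8 in LPN against SPN (horizontal log axis) under the reported setting and 20 alternatives (rows), with the dashed line at 0.05. Gdf9 crosses the line in 2 alternatives and Bmp15 in 4, and Kit lies left of it in 2.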

How the data were processed

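Embryo mRNA was amplified by Smart-seq2 v4 and tagged by Nextera XT for a NovaSeq run of 150-bp pairs, per the labels' protocols. The submitters' processing notes name the GRCm39 build and edgeR, R 3.3.3, HISAT2 2.2.1 and Trim Galore 0.6.7. Neither the counter of reads nor the annotation or test is given in the sources used here. CPM values were deposited by the authors for 19359 genes in 9 libraries. 100% of these values were whole multiples of 1 step within 0.01 reads, which gave back the reads and library totals (3.66% to 5.68% of a total lay outside the table).

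Values were tested as log2(CPM + 1), so fold changes of low genes are understated. The 14876 genes reaching 1 CPM in 3 or more libraries entered 1 limma model (limma 3.58.1, R 4.3.3, empirical Bayes with a trend, residual degrees of freedom 6, prior 25.88) with 3 two-sided contrasts. Benjamini-Hochberg adjustment ran over all tested genes, with calls at an adjusted p under 0.05. Each ± is an SD over 3 libraries. The procedure was also run on simulated data, with the outcome not given here. Of the 20 alternatives, edgeR 4.0.16 and DESeq2 1.42.0 used the recovered reads, and others changed the pseudocount, filter, scaling or libraries.

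Named genes are the members, up to 4 called genes per list and comparison by adjusted p (up to 2 by p where none was called), and the 3 genes most correlated with each member of at least 5 CPM, leaving out predicted and clone names. Examples were drawn from these. The members and lists were chosen with earlier results of these data known. The sequences and exon lengths come from GRCm38 annotations and were matched by symbol, with no coordinate converted from the authors' build. No member's exons overlap another gene's in that annotation (GENCODE vM21). The labels do not say whether the letters A, B and C pair libraries, and the values that follow do not settle it. Correlations of deviations from group means ran from -0.0239 to 0.092 for 9 pairs sharing a letter. For 18 others they ran from -0.0996 to 0.096. A model term for the letters gave 25 called genes instead of 16 for EPN against SPN. It gave 1644 instead of 1309 for LPN against SPN, and 480 instead of 228 for LPN against EPN.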

Additional observations from a re-analysis of the deposited data

How the results depend on the processing

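Under 20 alternatives, the log2 difference of LPN from SPN kept its sign for Gdf9 (-1.50 to -1.16) and Bmp15 (-1.65 to -1.17). Gdf9 passed in 18, failing without SPN C or LPN B, and Bmp15 in 16, failing without either and with edgeR under TMM (adjusted p = 0.0513) or DESeq2 size factors (adjusted p = 0.0552). Members called in LPN against SPN numbered 2, but 1 with edgeR under TMM or DESeq2 size factors, 3 with array quality weights, and 0 to 3 when 1 library was left out (limma; 0 without SPN C and without LPN B, with 3 and 4 at an unadjusted p under 0.05). In LPN against EPN they numbered 0, 1 with the replicate block (Bmp15, adjusted p = 0.0481) and 0 to 1 with 1 library left out. In EPN against SPN they were 0 in every alternative (limma, edgeR and DESeq2, with 0 to 2 at an unadjusted p under 0.05). Genes called in EPN against SPN, 16 as reported, were 4 with a pseudocount of 0.1, 3 with median-of-ratios scaling, 313 with array quality weights, 116 with DESeq2, 25 with the replicate block, and 0 with no filter, 6 libraries (limma; 1859 and 1510 unadjusted) or edgeR under TMM and DESeq2 size factors (1304 and 1301 unadjusted). They were 0 to 451 with 1 library left out (0 without SPN C or EPN C, 451 without SPN A). In LPN against SPN, 1309 as reported, they were 494 with no filter, 659 with 6 libraries, 2731 with array quality weights, 477 and 479 with edgeR under TMM and DESeq2 size factors, and 96 to 2733 with 1 library left out. In LPN against EPN, 228 as reported, they were 62 with a pseudocount of 0.1, 0 with no filter (limma; 3015 unadjusted), 395 with a mean of at least 5 CPM, 464 with 6 libraries, 1321 with array quality weights, 17 and 21 with edgeR, 926 with DESeq2, 480 with the replicate block, and 4 (without LPN B) to 762 (without SPN A) with 1 library left out. The cause of these changes was not tested, and leaving a library out also left fewer libraries in the fit. No called difference changed sign. Differences that were not called did, all at adjusted p values above 0.6. They were Nobox between EPN and SPN (0.20 with array quality weights, -0.46 to 0.27 with 1 library left out). Sohlh1 did so between EPN and SPN (-0.36 with a pseudocount of 0.1, -0.60 to 0.50 with 1 left out), LPN and SPN (-0.10 to 0.60 with 1 left out) and LPN and EPN (-0.032 with a pseudocount of 5, -0.24 and -0.22 with edgeR under TMM and DESeq2 size factors, -0.28 to 0.80 with 1 left out). Sohlh2 did so between EPN and SPN (-0.48 to 1.04 with 1 left out), LPN and SPN (-0.040 with array quality weights, -0.32 to 0.89 with 1 left out) and LPN and EPN (-0.81 to 0.71 with 1 left out). Of the markers, so did Hba-a1 between EPN and SPN (-0.14 with array quality weights, -0.31 to 0.44 with 1 left out). Izumo1 did so between LPN and SPN (-0.0026 with a pseudocount of 0.1, -0.53 to 1.34 with 1 left out) and LPN and EPN (0.038 with a pseudocount of 5, 0.62 and 0.62 with edgeR, -1.42 to 0.46 with 1 left out). The replicate block changed no other call for the members. Figla, Sohlh1, Sohlh2 and Lhx8 had at most 105 reads in any library, and how far depth limited their values was not tested.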
